A study of Mus musculus with 4 samples.

Results

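Noncoding RNAs of mouse mTEChi were examined through their RefSeq entries, in libraries labelled WT and Aire-KO. The members were the RefSeq IDs beginning with NR whose gene had no NM (coding) ID in the count tables. There were 3194 such IDs, from 2720 genes, among 30794 IDs in all (10.4%). A further 289 NR IDs belonged to genes that also have an NM ID, and 151 had no gene symbol, so that the rule could not be applied to them. By the gene type of the reference annotation, or by symbol where it gave none, the members comprised 1155 IDs of RIKEN cDNA clones, 777 microRNA hairpins, 402 Gm gene models, 326 pseudogenes, 189 other named long noncoding RNAs (lncRNAs), 152 snoRNAs and scaRNAs, 144 antisense or opposite-strand transcripts, 30 host genes of small RNAs and 19 other small structured RNAs. The rule rests on the annotation of the time, and the later RefSeq release used for names lists 5 of the member genes as protein coding.

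mTEChi, the epithelial cells of the thymic medulla that carry much MHC class II, had been sorted as CD45-, Ly51- and I-A/E-high cells from B6 mice at 4 weeks of age. The 4 libraries comprised 1 of WT and 1 of Aire-KO (Aire-/-) mice in a first experiment and the same in a replicate experiment, each from pooled thymi of 4 mice. The library kit selected polyA RNA and did not mark strand, and 50-bp reads lying wholly inside RefSeq exons had been counted. The p-values therefore rest on the spread between 2 libraries per genotype. Total counts ranged from 111077552 to 242862323 per library. Counts over the whole Aire gene were higher in the libraries labelled Aire-KO (200697 and 175884, against 87229 and 36597 in WT). The deleted exons of Aire are not given in the sources used here, so these counts cannot check the labels. The 12 mTEC markers were all tested, with a summed level of 15500 and 25900 CPM in WT and 26700 and 32800 CPM in Aire-KO (CPM is the count relative to the library total scaled by TMM). None was called by edgeR or DESeq2 or passed an unadjusted p under 0.05. Under the block described below 5 of the 12 were lower in WT, where 10.4% of all IDs were lower. In bulk libraries, fewer cells of a type and less RNA per cell cannot be told apart.

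Long noncoding RNAs are transcribed and often spliced like messenger RNAs but are not translated. Some, such as Xist, act in the nucleus on the chromatin or bodies they help to build, and many start beside or opposite a coding gene. MicroRNAs are cut from hairpins in longer primary transcripts by Drosha and Dicer and pair with target RNAs through their seed, the bases from position 2 to position 8. Small nucleolar RNAs (snoRNAs) guide the modification of ribosomal RNA and are mostly freed from introns of host genes. Aire is the factor by which mTEChi transcribe a large set of genes that are otherwise restricted to peripheral tissues, which exposes thymocytes to the corresponding self-antigens.

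The promoters of several noncoding genes that differed between the genotypes are shown first, since they span CpG-poor and CpG-rich windows among these genes. Each window holds 300 bases, of which 250 precede the annotated start and 50 follow it, from RefSeq on GRCm38.p6. Capitals mark every CpG. They belong to the RIKEN clone gene 1700100L14Rik (chr13:70572991-70573290, plus strand), to Pcsk2os2, on the strand opposite the prohormone convertase gene Pcsk2 (chr2:143789137-143789436, minus strand), to Miat, a nuclear lncRNA (chr5:112228899-112229198, minus strand), to Dio3os, beside the thyroid hormone deiodinase gene Dio3 (chr12:110278019-110278318, minus strand), and to the gene model Gm5086, the only one of the 5 that was lower in WT (chr13:97559750-97560049, plus strand).
1700100L14Rik: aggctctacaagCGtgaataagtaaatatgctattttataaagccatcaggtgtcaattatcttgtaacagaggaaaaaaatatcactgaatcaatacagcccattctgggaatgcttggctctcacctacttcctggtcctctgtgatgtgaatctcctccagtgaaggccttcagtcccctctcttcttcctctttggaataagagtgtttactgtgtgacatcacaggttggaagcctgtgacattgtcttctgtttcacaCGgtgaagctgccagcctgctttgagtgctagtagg
Pcsk2os2: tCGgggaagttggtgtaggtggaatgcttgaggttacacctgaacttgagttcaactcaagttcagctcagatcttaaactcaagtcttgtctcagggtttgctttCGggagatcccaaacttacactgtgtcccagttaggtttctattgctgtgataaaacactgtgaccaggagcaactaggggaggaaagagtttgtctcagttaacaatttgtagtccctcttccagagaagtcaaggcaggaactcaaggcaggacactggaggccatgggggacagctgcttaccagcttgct
Miat: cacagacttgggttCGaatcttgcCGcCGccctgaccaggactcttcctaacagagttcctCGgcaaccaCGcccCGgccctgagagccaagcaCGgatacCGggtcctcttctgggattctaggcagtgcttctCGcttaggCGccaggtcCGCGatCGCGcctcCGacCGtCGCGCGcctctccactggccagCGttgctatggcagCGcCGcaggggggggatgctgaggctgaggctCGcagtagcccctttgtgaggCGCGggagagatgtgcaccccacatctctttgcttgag
Dio3os: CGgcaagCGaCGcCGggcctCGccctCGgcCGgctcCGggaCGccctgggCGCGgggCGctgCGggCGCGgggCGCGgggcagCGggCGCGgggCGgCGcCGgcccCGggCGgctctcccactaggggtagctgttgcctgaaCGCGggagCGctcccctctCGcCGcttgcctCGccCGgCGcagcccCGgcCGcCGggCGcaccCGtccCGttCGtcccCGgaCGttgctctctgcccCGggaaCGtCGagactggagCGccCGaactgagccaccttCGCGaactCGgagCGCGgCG
Gm5086: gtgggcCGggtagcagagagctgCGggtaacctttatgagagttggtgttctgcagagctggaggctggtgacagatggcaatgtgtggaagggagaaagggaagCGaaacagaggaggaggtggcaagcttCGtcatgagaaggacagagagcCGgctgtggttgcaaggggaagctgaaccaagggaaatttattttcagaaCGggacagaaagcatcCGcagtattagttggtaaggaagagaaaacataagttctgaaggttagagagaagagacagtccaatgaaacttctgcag
These windows held 2, 2, 25, 53 and 7 CpGs in the order shown. Of the 32 noncoding genes higher in WT, 21 matched the promoter table with 22 windows, whose median was 4.5 CpGs, with a range of 1 to 53. The median over 1017 windows of the noncoding genes tested was 7, as it was over all 32851 windows in the table. The hexamer TATAAA, searched on both strands, occurred in 7 of the 22 windows (31.8%), in 11.7% of the windows of noncoding genes tested and in 13.6% of all windows. Among the windows shown, that of 1700100L14Rik held it. For comparison, coding genes higher in WT had a median of 4 CpGs and the hexamer in 23.4% of 1082 windows. These are descriptions of letters in fixed windows.

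Hairpins to which the results below refer are shown by mature microRNAs from RefSeq on GRCm38.p6, with the seed in capitals and not every arm shown. Mir675 lies on chromosome 7 (its hairpin at chr7:142577064-142577147, minus strand), Mir1892 on chromosome 12 (chr12:54645933-54646012, minus strand) and Mir147 on chromosome 2. Mir686 was among the most counted hairpins, Mir21a lies in an exon of the coding gene Vmp1, and Mir29b-2 and Mir29c belong to a family whose 3p arms share a seed.
mmu-miR-675-5p: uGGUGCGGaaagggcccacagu
mmu-miR-675-3p: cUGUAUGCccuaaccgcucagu
mmu-miR-1892: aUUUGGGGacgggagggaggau
mmu-miR-147-5p: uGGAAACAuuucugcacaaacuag
mmu-miR-686: aUUGCUUCccagacggugaaga
mmu-miR-21a-5p: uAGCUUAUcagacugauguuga
mmu-miR-29b-3p: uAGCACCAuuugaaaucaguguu
mmu-miR-29c-3p: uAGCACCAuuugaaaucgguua
The seed AGCACCA was common to mmu-miR-29b-3p and mmu-miR-29c-3p, and the other 6 mature sequences shown each had a seed of their own. The longest mature microRNA in the table had 27 bases. A read of 50 bp wholly inside a hairpin is thus longer than any mature microRNA, and hairpin counts measure longer transcripts that contain the hairpin.

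Most noncoding RNAs were measured at low levels. Of the 3194 IDs, 637 had no count in any library, 793 had counts but were too low to be tested, and 1764 (55.2%) passed the filter on low counts, against 90.6% of NM IDs. The median level among IDs tested was 0.705 CPM for noncoding and 13.1 CPM for NM IDs, and the median standard error of the log2 fold change was 0.75 and 0.48. Together, noncoding IDs took 1.295% of all counts in the WT library of the first experiment and 1.089% in that of the replicate experiment. The 95% exact binomial intervals, for counting error only and with reads taken as independent, were 1.2934% to 1.2966% and 1.0871% to 1.0910%. In Aire-KO the shares were 1.684% (1.6822% to 1.6861%) and 1.029% (1.0278% to 1.0303%). The Aire-KO share was thus above the WT share in the first experiment and below it in the replicate experiment. Malat1 alone made up 19.3% and 22.6% of the noncoding counts of the first experiment (WT and Aire-KO), against 8.79% and 5.68% of those of the replicate. Pseudogenes made up 31.6% and 20.7% of those counts in the first experiment, against 47.1% and 47.6% in the replicate.

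Between WT and Aire-KO, 34 noncoding IDs (32 genes) were higher and 3 IDs (3 genes) were lower in WT, with the adjusted p below 0.05 in edgeR's quasi-likelihood test with Benjamini-Hochberg adjustment over 26790 IDs. These were 1.93% and 0.17% of the noncoding IDs tested. Over all IDs tested, 5.58% were higher and 0.258% lower. The share of noncoding IDs that were higher was therefore below that of all IDs, at a lower median level and a larger standard error. The median log2 fold change (WT over Aire-KO) was −0.04 for noncoding IDs and −0.03 for all IDs tested. With the experiment as a replicate block, 135 noncoding IDs (7.65%) were higher and 87 (4.93%) lower, where all IDs gave 16.5% and 10.4%. All 37 IDs called without the block were also called with it. Of the noncoding IDs tested, 224 were higher and 70 lower at an unadjusted p under 0.05. For unadjusted p, here and below, and for the fits without 1 library, the shares over all IDs are not given. Such counts are therefore not read as particular to the members. Without the Aire-KO library of the first experiment 208 were higher and 14 lower, and without that of the replicate experiment 92 and 60. The counts were 31 and 6 without the WT library of the replicate experiment, and 45 and 22 without that of the first. Among markers of other cells, 3 of 6 fibroblast genes (Col1a2, Col3a1 and Dpt) were lower in WT, with a summed level of 89.5 and 71.6 CPM for the list in WT against 153 and 176 CPM in Aire-KO. Without the WT library of the replicate experiment the adjusted p from edgeR was 0.172 for Col1a2, 0.205 for Col3a1 and 0.0609 for Dpt, and with library sizes alone it was 0.0584 for Col1a2 and 0.0687 for Col3a1. Of 5 markers of cortical epithelium, Enpep, the gene for the Ly51 antigen that the sort selected against, was higher in WT, at 14.0 and 12.1 CPM against 2.25 and 1.8 CPM in Aire-KO (adjusted p = 0.0268 from edgeR), with summed levels of 272 and 314 CPM for the list in WT and 615 and 398 CPM in Aire-KO. Of 9 markers of dendritic cells and macrophages, 2 were higher in WT by edgeR (8 positive and 1 negative log2 fold changes, median 1.21). At an unadjusted p under 0.05 there were 3 higher, by DESeq2 3 and under the block 2. Summed levels were 359 and 608 CPM in WT and 396 and 380 CPM in Aire-KO. Most of these sums came from Lyz2, at 252 and 489 CPM in WT and 326 and 345 CPM in Aire-KO. None of the 12 thymocyte genes was called by edgeR (11 positive log2 fold changes, 5 at an unadjusted p under 0.05), and 2 were called higher by DESeq2 and 6 under the block, with summed levels of 44.5 and 67.5 CPM in WT and 33.9 and 41.0 CPM in Aire-KO. None of the 4 markers each of B cells, endothelium and red cells was called by edgeR. At an unadjusted p under 0.05 there was 1 B cell gene higher (Cd79a, also called by DESeq2 and under the block) and 1 red cell gene higher, with 2 red cell genes higher under the block and no DESeq2 call. The summed level of the red cell genes was 27.9 and 383 CPM in WT and 16.5 and 175 CPM in Aire-KO. The part of these cells in the results was not tested.

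**Figure D1:**
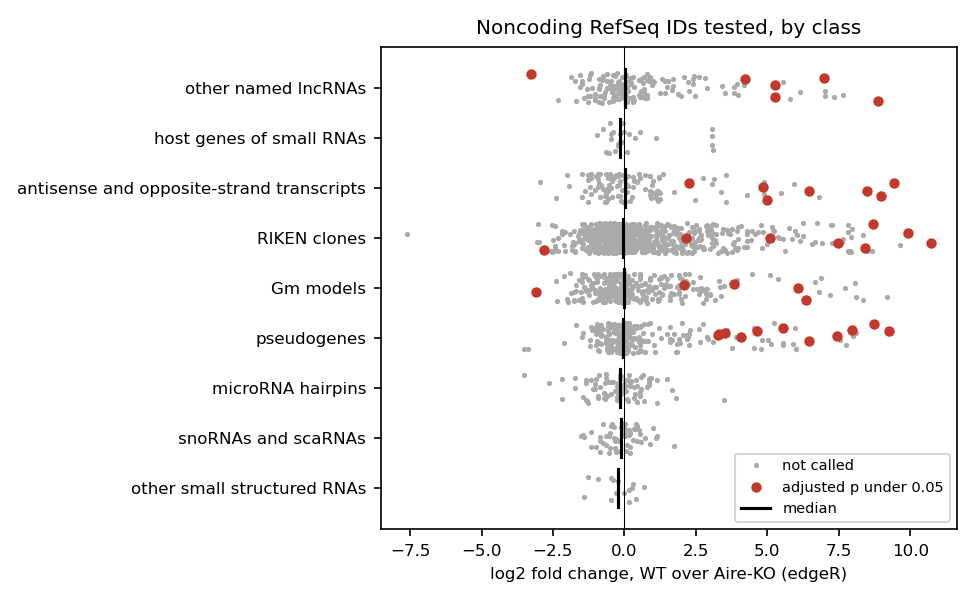
log2 fold change (x axis, WT over Aire-KO, edgeR) of the 1764 noncoding RefSeq IDs tested, by class (y axis). Each point is 1 RefSeq ID, red where the adjusted p was under 0.05, and black bars are class medians. The medians lie between −0.22 and 0.03, and no red point stands in the host genes or in the 3 classes of small RNAs.

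The calls were spread over the classes of long RNAs and pseudogenes. Of 113 antisense or opposite-strand transcripts tested, 7 were higher in WT (6.19%), near the 5.58% of all IDs. Of 251 pseudogene IDs, 11 were higher (4.38%). Of 161 other named lncRNAs, 5 were higher (3.11%) and 1 lower. Of 289 Gm models, 4 were higher and 1 lower. Of 763 RIKEN clone IDs, 7 were higher (0.917%) and 1 lower. RIKEN clones whose number marks a testis cDNA library gave 5 higher and 1 lower of 269 tested, and the other clones 2 higher and none lower of 494. No host gene of small RNAs (26 tested), microRNA hairpin (87), snoRNA or scaRNA (59) or other small structured RNA (15) was called by edgeR. At an unadjusted p under 0.05 there were 4 host gene IDs higher, and 3 hairpins higher and 1 lower, with none among snoRNAs or structured RNAs. With 1 ID per gene, the one of most counts, Mir9-3hg was the only host gene to pass, so the 4 IDs are not 4 separate genes. The block gave the same numbers, and DESeq2 gave 4 host gene IDs and 3 hairpins higher and none lower. Over all classes DESeq2 called 140 noncoding IDs higher and 44 lower, which is 5.48% and 1.72% of the 2557 with an adjusted p, beside 11.9% and 1.91% of all 29571 IDs with one.

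Miat, the nuclear lncRNA whose promoter is shown above, was higher in WT. It lies on chromosome 5 of mm9 (chr5:112642248-112657968, minus strand, GENCODE). Its level was 35.1 and 11.7 CPM in WT (first and replicate experiment) and 1.06 and 0.165 CPM in Aire-KO. Both WT libraries stood above both Aire-KO libraries, although they differed from each other. The log2 fold change was 5.27 (standard error 1.06), with an adjusted p of 0.0435 by edgeR and of 1.56e-06 under the block. Its 2 RefSeq IDs had the same counts in every library and are 1 measurement.

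The 7 opposite-strand transcripts higher in WT were Tbx3os2, Pcsk2os2, Dio3os, Hoxa11os, Kank4os, Arhgap33os and Plet1os. Tbx3os2, which starts near the limb and mammary regulator Tbx3, had the smallest p of the class, with 368 and 224 counts in WT and 9 and 14 in Aire-KO. Its log2 fold change was 4.84 (standard error 0.67, adjusted p = 0.0212 from edgeR). Pcsk2os2 had 118 and 52 counts in WT and none in either Aire-KO library, which puts it at least 28.9-fold higher in WT against a floor of 3 counts per library. Here and below, such a fold divides the mean WT level by the mean floor of the Aire-KO libraries. It takes the WT mean as measured and counts as independent, and it is not a bound for each experiment. Dio3os had 86 and 37 counts in WT and none in Aire-KO, at least 20.9-fold higher. Hoxa11os, opposite the homeobox gene Hoxa11, had 57 and 28 counts in WT and none in Aire-KO, at least 14.7-fold higher. Kank4os had 269 and 123 counts in WT and 8 and 4 in Aire-KO, and Arhgap33os had 63 and 40 in WT and 1 and 0 in Aire-KO. For all of these the groups did not overlap. Plet1os, opposite Plet1, a surface protein gene of epithelial progenitors, was the most abundant of the 7, at 23.3 and 21.1 CPM in WT and 6.06 and 3.25 CPM in Aire-KO. Its log2 fold change was 2.25 (standard error 0.45, adjusted p = 0.0434 from edgeR). Leaving out 1 library put Plet1os above the threshold (adjusted p = 0.0646 from edgeR without the Aire-KO library of the replicate experiment), as it did Dio3os (0.0562 without the WT library of the first experiment), Hoxa11os (0.104 without that library and 0.0926 without the WT library of the replicate) and Arhgap33os (0.106 and 0.165).

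Reads of an antisense gene and of an overlapping coding gene cannot be told apart in libraries without strand. On mm9, 33.8% of the exon bases of Hoxa11os lie in coding exons of the opposite strand (Hoxa11), and for Pcsk2os2 the share is 2.9%. Kank4os, Dio3os, Tbx3os2 and Arhgap33os had no such overlap, and Plet1os was not placed. Of 999 noncoding genes that were tested and placed on mm9 by GENCODE, 354 (35.4%) had some exon overlap with a coding gene. Among the 583 tested IDs that were placed, had no such overlap and were no pseudogenes, 10 (1.72%) were higher and 1 was lower.

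Among the 9 called genes without a count in either Aire-KO library, a pair of clone genes had the largest folds of mean WT level over the mean floor. 1700100L14Rik had 154 and 198 counts in WT and none in Aire-KO, at least 70.2-fold higher. 1700029B22Rik had 107 and 102 counts in WT and none in Aire-KO, at least 39.9-fold higher. Another RefSeq ID had the same counts as 1700029B22Rik in every library. 1600025M17Rik, on the X chromosome, had 63 and 34 against none, at least 17.0-fold higher. 1700018G05Rik had 120 and 200 counts in WT and 0 and 1 in Aire-KO, and 1700063D05Rik had 106 and 91 in WT and 1 and 0 in Aire-KO. These genes were thus at or near 0 in both Aire-KO libraries at the depth of the data. 2610028E06Rik had 195 and 143 counts in WT and 5 and 6 in Aire-KO. 4933431E20Rik, whose exons overlap coding exons of Eps8l3 and Gstm5 on the opposite strand, had 6.77 and 9.35 CPM in WT and 1.86 and 1.81 CPM in Aire-KO. Among the Gm models, Gm53, which lies near the homeobox gene Hoxb9 (chr11:96112419-96126182, plus strand, mm9), had 244 and 154 counts in WT and 4 and 2 in Aire-KO, with a log2 fold change of 6.08 (standard error 0.92, adjusted p = 0.0248 from edgeR). Gm20611 had 463 and 141 counts in WT and 0 and 8 in Aire-KO, and Gm16702 had 174 and 78 against 7 and 12. Leaving out the WT library of the first or of the replicate experiment gave an adjusted p from edgeR of 0.0693 and 0.0741 for 1600025M17Rik and of 0.218 and 0.146 for Gm16702. Gm13539 was the most abundant of these models, at 8.39 and 13.4 CPM in WT and 2.35 and 2.74 CPM in Aire-KO. Without the WT library of the replicate experiment the adjusted p from edgeR was 0.166 for Gm13539 and 0.132 for 4933431E20Rik.

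Among the remaining named lncRNAs, C86187 (also called Sirena1, an oocyte lncRNA) had 169 and 102 counts in WT and 2 and 0 in Aire-KO. Eprn had 353 and 204 counts in WT and 16 in each Aire-KO library, a log2 fold change of 4.21 (standard error 0.68, adjusted p = 0.0285 from edgeR). Speer1, of a testis-expressed gene family, had 67 and 41 counts in WT and none in Aire-KO, at least 19.3-fold higher. Speer1 is also 1 of the 5 members that the later RefSeq release lists as coding, and its adjusted p from edgeR was 0.0646 without the WT library of the replicate experiment.

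**Figure D2:**
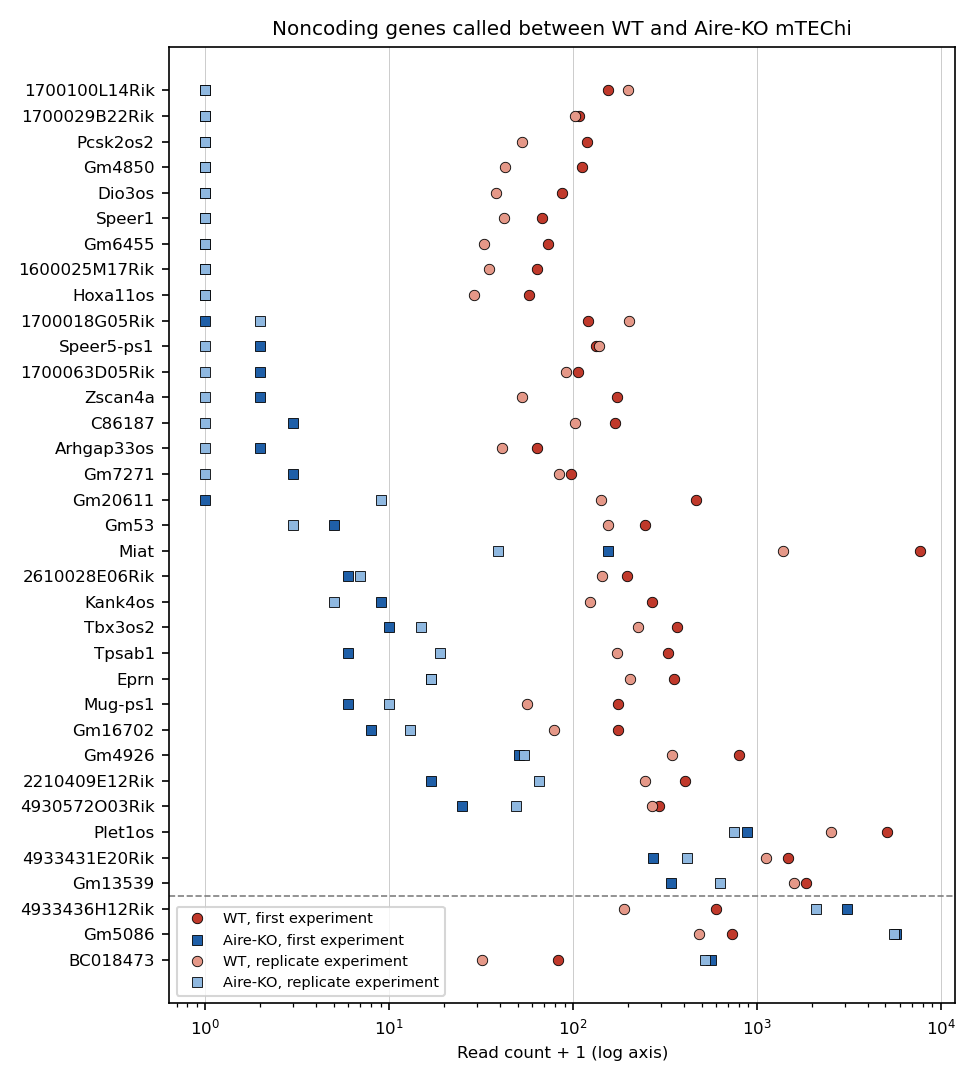
Read count plus 1 (x axis, log axis) of the 35 noncoding genes called between WT and Aire-KO (y axis, ordered by log2 fold change), with the RefSeq ID of most counts for each gene. Circles are WT and squares Aire-KO libraries, dark for the first and pale for the replicate experiment, and genes below the dashed line were lower in WT. In 9 genes both squares lie at a count of 0.

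Of the pseudogenes higher in WT, Gm4850 had 111 and 42 counts in WT and none in Aire-KO, at least 25.5-fold higher. Gm6455 had 72 and 32 against none, at least 17.7-fold higher. Speer5-ps1, of the same testis-expressed family as Speer1, had 133 and 137 counts in WT and 1 and 0 in Aire-KO. Zscan4a, of a gene family active in the early embryo, had 172 and 52 counts in WT and 1 and 0 in Aire-KO. Tpsab1, of the mast cell tryptases, had 326 and 172 counts in WT and 5 and 18 in Aire-KO, with a log2 fold change of 4.65 (standard error 0.77, adjusted p = 0.0298 from edgeR). Mug-ps1, of the murinoglobulins secreted by the liver, had 174 and 55 against 5 and 9. Gm4926 had the most counts of these pseudogenes, 799 and 344 in WT and 50 and 53 in Aire-KO. Gm7271, 4930572O03Rik and 2210409E12Rik completed the list. Without the WT library of the replicate experiment the adjusted p from edgeR was 0.102, 0.198 and 0.0637 for these, 0.0546 for Gm6455 and 0.0976 for Mug-ps1. Without that of the first experiment it was 0.0795 for Gm6455, 0.312 for Mug-ps1 and 0.0562 for Zscan4a. On mm9, 56.9% of the exon bases of 2210409E12Rik lie in exons of the coding gene Coil. A pseudogene can share reads with its parent gene or with other copies, so these counts are uncertain as to their source.

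The 3 genes lower in WT were each separated between the genotypes in both experiments. Gm5086, whose promoter is shown above, had 3.34 and 4.04 CPM in WT and 39.4 and 24.1 CPM in Aire-KO. Its log2 fold change was −3.11 (standard error 0.44, adjusted p = 0.0216 from edgeR, 1.79e-05 under the block). 4933436H12Rik had 2.74 and 1.58 CPM in WT and 21.4 and 9.06 CPM in Aire-KO, a log2 fold change of −2.82 (standard error 0.59, adjusted p = 0.0473 from edgeR). BC018473 (chr11:116613481-116620687, plus strand, mm9) lies within the span of St6galnac1 on the other strand, with no exon overlap. It had 0.374 and 0.26 CPM in WT and 3.85 and 2.26 CPM in Aire-KO, a log2 fold change of −3.26 (standard error 0.61, adjusted p = 0.0375 from edgeR, or 0.0507 without the WT library of the replicate experiment).

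Called noncoding genes were compared with their nearest coding gene in the order of the reference annotation. Of 28 noncoding genes higher in WT whose neighbour was tested, 7 (25%) had a neighbour that was also higher. Over all 1448 noncoding genes tested with a tested neighbour, 66 neighbours (4.56%) were higher. Where the noncoding and the coding gene overlapped, the numbers were 4 of 6 for genes higher in WT and 24 of 676 for all. Where they lay apart, they were 3 of 22 and 42 of 772. These relations come from the reference annotation and can differ from the mm9 placements above. Both 2210409E12Rik with Coil and BC018473 with St6galnac1 counted as apart, although they overlap on mm9. The overlapping pairs were Plet1os with Plet1 (14721 and 8014 counts in WT, 2723 and 2727 in Aire-KO), Pcsk2os2 with Pcsk2 (1040 and 993 against 101 and 242), Kank4os with Kank4 (769 and 432 against 18 and 60) and 4933431E20Rik with Eps8l3 (1584 and 1297 against 255 and 298). The pairs that lay apart were Gm53 with Hoxb9, Gm4926 with Dppa1 and Tpsab1 with the serine protease gene Prss29. Reads can be shared where exons overlap, so the overlapping pairs need not be independent measurements. On mm9, Kank4os had no exon overlap with Kank4. Dio3, beside Dio3os, had 726 and 274 counts in WT and 0 and 38 in Aire-KO, and missed the threshold (adjusted p = 0.0897 from edgeR). Hoxa11 had 41 and 23 counts in WT and none in Aire-KO (adjusted p = 0.0536). Tbx3, in contrast, had 18.7 and 9.69 CPM in WT and 39.0 and 23.4 CPM in Aire-KO. Its log2 fold change of −1.14 (standard error 0.48, adjusted p = 0.246 from edgeR) lay on the other side of 0 from that of Tbx3os2. None of the 3 noncoding genes lower in WT had a neighbour called by edgeR.

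**Figure D3:**
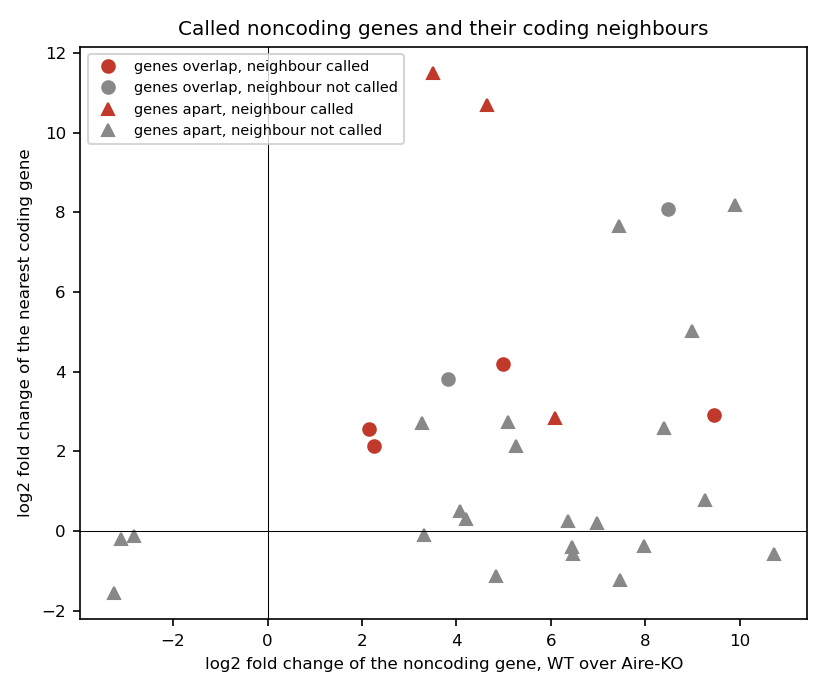
log2 fold change of the nearest coding gene (y axis) against that of the noncoding gene (x axis), both WT over Aire-KO, for the 31 called noncoding genes with a tested neighbour. Circles are overlapping and triangles separate gene pairs by the reference annotation, red where the coding neighbour was called. The 7 red points all lie above 0 on both axes, and several genes with a large difference have a neighbour near 0.

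Malat1 and Neat1, lncRNAs of nuclear bodies, had the most counts of the noncoding genes over the 4 libraries together. In the replicate experiment, the pseudogenes Ubb-ps (631 CPM) and Rplp2-ps1 (581 CPM) stood above Neat1 (462 CPM) in WT. Rplp2-ps1 (722 CPM) stood above Malat1 (618 CPM) in Aire-KO of that experiment. Malat1, of nuclear speckles, had 2190 and 892 CPM in WT and 4420 and 618 CPM in Aire-KO, so that the order of the genotypes turned between the experiments. Neat1, the scaffold of paraspeckles, had 1010 and 462 CPM in WT and 2750 and 872 CPM in Aire-KO. The WT level was the lower in each experiment, with a log2 fold change of −1.30 (standard error 0.66) that missed the threshold (adjusted p = 0.346 from edgeR) and passed it under the block (adjusted p = 0.00339). The RefSeq ID of Neat1 covers 3177 bp and its GENCODE gene spans chr19:5824708-5845478 on mm9, so the counts are those of the shared first part of its isoforms. Per length, Neat1 and Malat1 were close in the WT libraries, at 317 and 313 RPKM in the first and 145 and 128 RPKM in the replicate experiment. In Aire-KO, Neat1 had the higher level per length, at 865 against 633 RPKM in the first and 275 against 88.5 RPKM in the replicate experiment. Among the 9 RNAs tested from a list of mostly nuclear lncRNAs that holds both, Miat was higher in WT and none was lower. Log2 fold changes were below 0 for 7. Tug1 had a log2 fold change of −0.23 and Norad of −0.53 (adjusted p = 0.925 and 0.639 from edgeR). The list's median was −0.53, beside −0.03 over all IDs. Of 14 coding genes for proteins of paraspeckles and partners of Xist and Malat1, none was called by edgeR or DESeq2 or passed an unadjusted p under 0.05 (median log2 fold change −0.23). Under the block 2 of the 14 were lower in WT, where 10.4% of all IDs were lower.

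**Figure D4:**
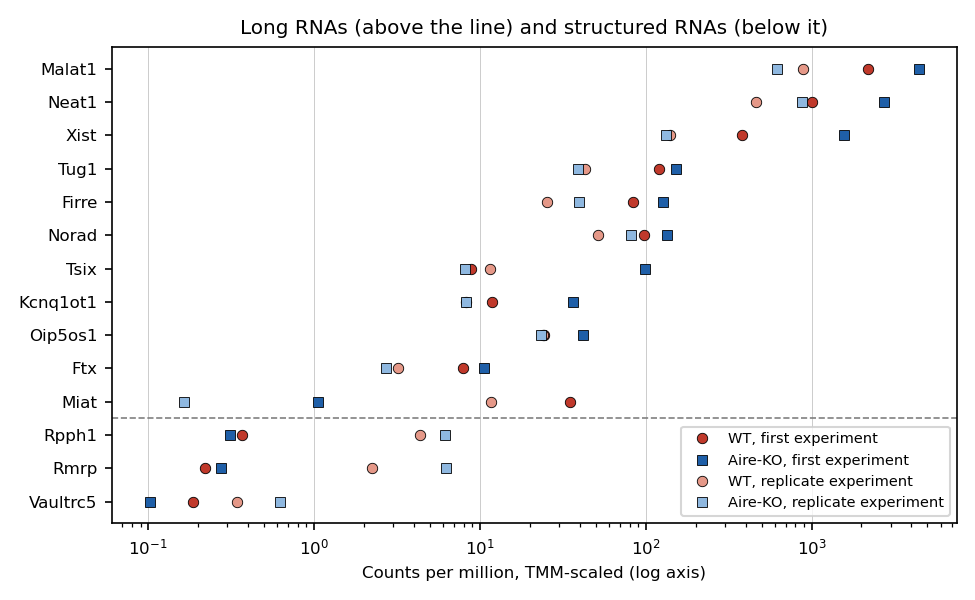
Level (x axis, CPM scaled by TMM, log axis) of 11 long noncoding RNAs above the dashed line and 3 structured RNAs below it (y axis). Circles are WT and squares Aire-KO libraries, dark for the first and pale for the replicate experiment. Malat1, Xist and Tug1 lie higher in both libraries of the first experiment, and Rpph1 and Rmrp in both libraries of the replicate experiment.

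Of the 5 RNAs of X inactivation tested, none was called by edgeR or passed an unadjusted p under 0.05, with 1 lower in WT by DESeq2 (Tsix) and 1 under the block (Firre). Over all IDs, 1.91% were lower by DESeq2 and 10.4% under the block. Xist, which coats the inactive X of female cells, had 381 and 140 CPM in WT and 1570 and 133 CPM in Aire-KO. The Aire-KO library of the first experiment stood above the other 3, and in the replicate experiment the genotypes were nearly level. The log2 fold change was −1.71 (standard error 1.07, adjusted p = 0.465 from edgeR, 0.0837 under the block). Tsix, its antisense RNA, had 8.82 and 11.5 CPM in WT and 98.9 and 8.12 CPM in Aire-KO (adjusted p = 0.255 from edgeR and 0.0324 from DESeq2), and it too was high in that 1 Aire-KO library. The Tsix gene spans Xist on mm9, and their reads cannot be told apart without strand. Genes of the Y chromosome were present in every library, so that each pool held cells of male mice. The summed level of 4 Y-linked genes was 117 and 38.4 CPM in WT and 70.1 and 26.9 CPM in Aire-KO. The part of the sex of the pooled mice in the Xist values was not tested. Among the other members of the list, Jpx and Ftx had log2 fold changes of −0.70 and −0.24 with adjusted p of 0.636 and 0.92 from edgeR. Firre, which organises nuclear chromatin from the X, had 83.6 and 25.3 CPM in WT and 128 and 39.7 CPM in Aire-KO, and was called lower in WT under the block alone (adjusted p = 0.0317).

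Imprinted lncRNAs and those of developmental loci had few calls by edgeR. None of 9 imprinted lncRNAs tested was called by edgeR, with 1 higher and 1 lower at an unadjusted p under 0.05, by DESeq2 and under the block (5 positive and 4 negative log2 fold changes, median 0.65). Over all IDs, 16.5% were higher and 10.4% lower under the block. Igf2os, opposite the fetal growth factor gene Igf2, had 248 and 117 counts in WT and 27 and 5 in Aire-KO, with a log2 fold change of 3.38 (standard error 1.07, adjusted p = 0.127, and 0.0127 under the block). Igf2 itself, whose exons overlap 1.8% of those of Igf2os, was higher in WT, at 33.7 and 62.0 CPM against 4.23 and 5.04 CPM (adjusted p = 0.0206 from edgeR). Airn, which silences its neighbours on the paternal chromosome, had 0.635 and 0.898 CPM in WT and 2.23 and 2.26 CPM in Aire-KO (adjusted p = 0.155, and 0.0395 under the block). The lncRNAs of the Dlk1-Dio3 domain, Meg3, Rian and Mirg, had log2 fold changes of 0.66, 0.65 and 1.32 with adjusted p of 0.676, 0.673 and 0.297 from edgeR.

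Of 21 developmental lncRNAs tested, Hoxa11os was higher in WT and none was lower by edgeR, where 5.58% of all IDs tested were higher. A log2 fold change above 0 was found for 17. The list's median was 1.16, beside −0.04 over the noncoding IDs tested, and the list was chosen with earlier results of these data known. With the block, Emx2os, Fendrr and Vax2os were higher as well and Pantr1 was lower, where 16.5% of all IDs were higher and 10.4% lower. Emx2os, beside the homeobox gene Emx2, had 89 and 92 counts in WT and 3 and 0 in Aire-KO (adjusted p = 0.0631 from edgeR, 0.0134 under the block). Fendrr, a lncRNA of lateral mesoderm, had 401 and 95 counts in WT and 22 and 0 in Aire-KO (adjusted p = 0.193, 0.00594 under the block). Vax2os, beside the eye regulator Vax2, had 151 and 105 counts in WT and 17 and 16 in Aire-KO (adjusted p = 0.0723, 0.0315 under the block). Pantr1, near the neural factor gene Pou3f3, had 1.43 and 2.22 CPM in WT and 5.88 and 6.16 CPM in Aire-KO, a log2 fold change of −1.72 (standard error 0.47, adjusted p = 0.0864 from edgeR, 0.00407 under the block). Hotair, of the Hoxc cluster, had 4.12 and 2.09 CPM in WT and 2.76 and 0.404 CPM in Aire-KO, where the WT value of the replicate experiment fell between the Aire-KO values (adjusted p = 0.655).

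Host genes of small RNAs gave no call by edgeR. None of 16 snoRNA host genes was called by edgeR, DESeq2 or the block or passed an unadjusted p under 0.05, with log2 fold changes from −0.75 to 0.15 and 13 of them below 0 (median −0.28, smallest adjusted p = 0.518). Snhg12, for example, had 17.8 and 12.8 CPM in WT and 17.8 and 25.6 CPM in Aire-KO, and Snhg1 had 3.74 and 3.52 against 3.23 and 3.61 CPM. The standard errors of these 2 log2 fold changes were 0.39 and 0.43, which limits the size of difference that could be detected. The list of microRNA host genes, with 10 tested, also held Mirt1 and Mirt2, lncRNAs that are not known as microRNA hosts. None of the 10 was called by edgeR. At an unadjusted p under 0.05 and by DESeq2, 1 was higher and 1 lower. Under the block 2 were higher, Mir9-3hg and Mirt1, where 16.5% of all IDs were higher. Mir9-3hg, host of the neural miR-9, had 236 and 267 counts in WT and 17 and 64 in Aire-KO, a log2 fold change of 3.05 (standard error 0.77, adjusted p = 0.0725, and 0.0048 under the block). C130071C03Rik, which spans the hairpin Mir9-2 on mm9, had 0 counts in both WT libraries and 28 and 19 in Aire-KO (adjusted p = 0.0782 from edgeR). These counts of Mir9-3hg and C130071C03Rik lay on opposite sides. Mir17hg, host of the proliferative miR-17 to miR-92 cluster, had 20.2 and 2.27 CPM in WT and 8.02 and 2.41 CPM in Aire-KO (adjusted p = 0.652). Mirt1 had 2.32 and 1.26 CPM in WT and 0.963 and 0.283 CPM in Aire-KO (adjusted p = 0.341 from edgeR, 0.046 under the block). Of 21 coding genes for the making of microRNAs and snoRNAs, none was called by edgeR or DESeq2 (median log2 fold change −0.26, 1 lower at an unadjusted p under 0.05). Under the block 4 of the 21 were lower in WT, where 10.4% of all IDs were lower.

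Of the 777 microRNA hairpin IDs, 504 (64.9%) had no count in any library and 87 were tested. A count of 0 allows up to 3 counts, with counts taken as independent. That is 0.0137 and 0.0252 CPM in the WT and 0.0206 and 0.013 CPM in the Aire-KO libraries (first and replicate experiment). The hairpins were short, with a median of 84 bp among 546 with a length in the tables, and 75 of them leave at most 20 positions at which a read of 50 bp can start. Hairpins within coding exons had more counts than the others. Of 462 hairpins placed on mm9, 44 lie at least 50% in coding exons, and these had a median of 63 counts, with 27 tested (61.4%). The 408 hairpins outside coding exons had a median of 0 counts, with 22 tested (5.39%). Hairpins in coding exons were 9.52% of those placed and held 72.0% of their counts. The most counted hairpin, Mir5107, held 45.3% of all hairpin counts, and in the reference annotation it overlaps Cd74, the MHC class II invariant chain gene. Its level was 73.7 and 80.8 CPM in WT and 137 and 113 CPM in Aire-KO, and Cd74 had 6480 and 8870 against 11700 and 14300 CPM. The log2 fold changes were −0.69 for Mir5107 and −0.76 for Cd74 (adjusted p = 0.352 and 0.367 from edgeR, and 0.027 and 0.0432 under the block).

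Mir147, whose 5p mature sequence is shown above, lies wholly in an exon of AA467197 (chr2:122466539-122466617, plus strand, mm9). It had 16.3 and 40.3 CPM in WT and 8.5 and 7.56 CPM in Aire-KO, with a log2 fold change of 1.82 (standard error 0.51, adjusted p = 0.0944, and 0.00251 under the block). AA467197 itself had 40.9 and 94.3 against 21.3 and 17.7 CPM, a log2 fold change of 1.79. Mir686, in an exon of the proteasome gene Psmb5, had a log2 fold change of 0.19, and Mir21a, in an exon of Vmp1, of 0.01 (adjusted p = 0.911 and 0.994 from edgeR), beside 0.02 for Psmb5 and 0.41 for Vmp1. Reads of the hairpin and of the coding exon around it cannot be told apart. Mir682, also among the most counted hairpins, lies outside the annotated coding exons, 62343 bp from Ell2 on mm9. This position does not show whether its sequence is shared with a coding gene elsewhere, and the source of its reads was not tested. Mir682 had 4.77 and 15.1 CPM in WT and 6.43 and 24.3 CPM in Aire-KO (adjusted p = 0.762 from edgeR). Both libraries of the replicate experiment stood above both of the first.

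Mir675 had the smallest p among hairpins. It lies outside coding exons (chr7:149762969-149763052, minus strand, mm9). Overlap was sought with coding genes alone, so a noncoding host gene would not show, and the counts may be those of such a host. Mir675 had 378 and 712 counts in WT and 31 and 108 in Aire-KO. Its log2 fold change of 3.48 (standard error 0.82) missed the threshold by edgeR (adjusted p = 0.0622) and passed it under the block (adjusted p = 0.000442). Mir1892, which overlaps Sptssa in the reference annotation, had 7.28 and 8.16 CPM in WT and 2.76 and 2.17 CPM in Aire-KO (adjusted p = 0.0761 from edgeR, 0.00326 under the block). For both hairpins the genotypes were separated in each experiment.

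Hairpins of well-known microRNAs were mostly at or near 0. Of 19 hairpins of epithelial cells in the files, 8 had no count and 3 were tested, none called by edgeR, DESeq2 or the block or below 0.05 before adjustment. Mir205, of stratified epithelia, had no count in any library, and Mir203, of skin, had 5, 3, 7 and 3 counts (WT and Aire-KO of the first experiment, then of the replicate). Mir200a had 4, 6, 0 and 6 counts in the same order. Mir29c had 120 and 7 counts in WT and 142 and 134 in Aire-KO (adjusted p = 0.585 from edgeR), and Mir29b-2, its neighbour with the same 3p seed, had 104 and 1 against 111 and 35. Of 28 hairpins of other tissues, 22 had no count, and none was tested. Of 18 hairpins of blood cells, 7 had no count and 2 were tested, with the same result. Those were Mir142, with 19 and 0 counts in WT and 46 and 25 in Aire-KO, and Mir92-1, with 110 and 5 against 30 and 23 (adjusted p = 0.506 and 0.802 from edgeR). No difference between genotypes was detectable at this depth for the hairpins tested here.

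SnoRNAs and scaRNAs were low as well. Of 152 IDs, 46 had no count and 59 were tested, with none called by edgeR, DESeq2 or the block and none at an unadjusted p under 0.05 (log2 fold changes from −1.54 to 1.74, median −0.11, smallest adjusted p = 0.32). Snora28, an H/ACA guide in an intron of Eif5, had the most counts, at 1.96 and 0.352 CPM in WT and 1.8 and 0.235 CPM in Aire-KO. Snora70, which lies in exon sequence of Rpl10 in the mm9 annotation, had 1.05 and 0.361 against 1.07 and 0.744 CPM. For Snora28 the experiments differed more than the genotypes. Snora34 had the smallest p, with 0.228 and 0.294 CPM in WT and 0.867 and 0.561 CPM in Aire-KO. Its log2 fold change was −1.45, with a standard error of 0.70 (adjusted p = 0.32 from edgeR). Of 5 RNAs of RNA polymerase III and other structured RNAs tested, none was called by edgeR, DESeq2 or the block or passed an unadjusted p under 0.05, and all 5 log2 fold changes were below 0 (median −0.93, smallest adjusted p = 0.594). Rmrp, the RNA of RNase MRP, had 48 and 267 counts in WT and 40 and 1438 in Aire-KO, and Rpph1, the RNA of RNase P, had 81 and 518 against 45 and 1410. The log2 fold change of Rpph1 (−0.46) was 2.91 without the Aire-KO library of the replicate experiment (adjusted p = 0.00597 from edgeR) and −3.19 without the WT library of that experiment (adjusted p = 0.0339). Most of the spread of Rmrp and Rpph1 lay between the experiments, with both libraries of the replicate above both of the first.

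The 10 most counted noncoding genes included 7 pseudogenes. Ubb-ps, of ubiquitin B, had 393 and 631 CPM in WT and 371 and 592 CPM in Aire-KO, and Rplp2-ps1, of a ribosomal stalk protein, had 211 and 581 against 287 and 722 CPM. H2-Q5, an MHC class I pseudogene, had 166 and 174 against 216 and 185 CPM, and Pisd-ps1 had 139 and 108 against 159 and 131 CPM. None of the 7 was called by edgeR, DESeq2 or the block or passed an unadjusted p under 0.05, with log2 fold changes between −0.35 and 0.09. Their reads may be shared with the parent genes.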

How the data were processed

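Counts came from 4 RNA-seq libraries of mTEChi, a WT and an Aire-KO library in each of 2 experiments. The deposited values are raw counts, without normalization. The libraries were sequenced paired-end, and the authors trimmed the reads to 50 bp and pooled the mates as single reads. Both mates of a fragment could therefore be counted. Reads of lower quality by CASAVA were left out. Mapping to mm9 used Bowtie, given as 1.0.0 by the submitters' notes. Reads wholly inside RefSeq exons were counted with bedtools. Kit and sequencer versions differ between the labels and the methods. Totals were 191404483 and 168899954 (WT and Aire-KO, first experiment) and 111077552 and 242862323 (replicate). The members, classes and gene lists were chosen with earlier results of these data known.

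All 30794 RefSeq IDs entered edgeR 4.0.16 (TMM factors 1.144, 0.8605, 1.073 and 0.9467, filterByExpr with its minimum of 10 counts, quasi-likelihood test, genotype only), with Benjamini-Hochberg adjustment and a threshold of 0.05. The step was also run on simulated counts with a common dispersion and no experiment effect. That run cannot check the fit where the experiments differ or the dispersion varies. The experiment pairs the libraries, since the study speaks of a replicate experiment. Deviations from the genotype means correlated at 0.534 between the libraries of an experiment (26790 IDs), and at 0.335 over the 1764 noncoding IDs tested. The replicate block, DESeq2 1.42.0, other scalings and filters, 1 RefSeq ID per gene and leaving out each library were alternatives. RPKM used lengths summed from the deposited feature tables where the parts added up within 10% of the count. mm9 positions and exon overlaps came from GENCODE vM1, for 1699 genes. Gene names, gene order, promoters and microRNAs came from RefSeq on GRCm38.p6, where 532 of 612 hairpin genes matched.

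Named genes were the 10 largest differences each way, the 10 most counted, the first 4 of each class by p, members of the lists, and the 6 most counted hairpins and snoRNAs. Plet1os, Gm13539, 4933431E20Rik, 2210409E12Rik, 4930572O03Rik, Mug-ps1, 1700063D05Rik, Gm7271 and Arhgap33os, and the coding genes around members, were named after their values were seen. Computations used R 4.3.3, limma 3.58.1, Python 3.11.15, numpy 2.4.6, pandas 2.3.3, scipy 1.17.1 and matplotlib 3.10.9.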

Additional observations from a re-analysis of the deposited data

How the results depend on the processing

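The number of noncoding IDs higher in WT was 34, and it became 90 with library sizes alone, 140 with DESeq2 and 135 with the replicate block. The number lower was 3, and it became 44 with DESeq2, 87 under the block and 9 without the filter on low counts. Leaving out each library in turn gave 31 to 208 higher and 6 to 60 lower, both lowest without WT replicate 2, and highest without Aire-KO replicate 1 and Aire-KO replicate 2 respectively. Without pseudogenes and overlapping members, a choice made after the data were seen, 10 were higher and 1 lower among fewer IDs. The median log2 fold change of noncoding IDs was 0.26 with library sizes alone, which moved the median of all IDs by more than 0.1 as well, and −0.17 to 0.43 when a library was left out (0.43 without Aire-KO replicate 1), against −0.04. Shares of counts averaged 1.27% over the libraries, 1.65% with 1 RefSeq ID per gene and 1.14% to 1.36% when a library was left out. Neighbours called with their noncoding gene numbered 11 with RLE size factors, 29 with library sizes alone, 57 with DESeq2, 15 without the filter, 55 under the block and 7 to 66 when a library was left out, against 7. The cause of these changes was not tested.

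All 35 called genes kept their direction under every alternative in which they were tested. They kept the call with RLE size factors, library sizes alone, DESeq2, the block and 1 RefSeq ID per gene, 33 kept it without the filter, and 33 were tested and kept it at 100 counts or more. Without WT replicate 1, 27 kept the call, without WT replicate 2, 22, without Aire-KO replicate 1, 35, and without Aire-KO replicate 2, 34. For 19 genes, among them Miat, Tbx3os2, Kank4os and Gm5086, the call held without each library, whereas Dio3os, Hoxa11os and Plet1os lost it in at least 1 of these fits. Rpph1 had a log2 fold change of 2.91 (adjusted p = 0.00597 from edgeR) without Aire-KO replicate 2, on the other side of 0, and −3.19 (adjusted p = 0.0339) without WT replicate 2, against −0.46.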

Other observations

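Some classes of small RNA stood apart between the experiments. The median log2 ratio of the first over the replicate experiment was 1.04 for snoRNAs and scaRNAs in WT and 0.53 in Aire-KO (59 genes), with 38 of 59 genes higher in both libraries of the first experiment and 4 higher in both of the replicate. For the 6 genes of other small structured RNAs the medians were −1.29 and −1.59, and 4 were higher in both libraries of the replicate experiment. Over all 19771 genes tested the medians were −0.01 and 0.16. Rpph1 was 11.7-fold and 19.8-fold higher in the replicate experiment (WT and Aire-KO) and Rmrp 10.2-fold and 22.7-fold. In the other direction, Malat1 was 2.45-fold and 7.16-fold, Xist 2.72-fold and 11.8-fold, and Tug1 2.79-fold and 3.90-fold higher in the first experiment.

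Of the 3194 noncoding IDs, 548 had the same counts above 0 in every library as some other ID.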
